A study of Mus musculus with 18 samples.

Results

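The chemokine genes of mouse liver, together with the genes of their receptors, were examined for their response to an antisense oligonucleotide against Mdm2. Members were all genes whose symbol began with Ccl, Cxcl, Cx3cl, Xcl, Ccr, Cxcr, Cx3cr, Xcr or Ackr directly followed by a digit, together with Ccrl2. Of 33235 genes in the tables, 64 carried such a symbol. A further filter dropped 6 of them (Ccl19-ps3, Ccl21b, Ccl21d, Ccl26, Ccl27b and Cxcl15), which were not above a normalized count of 1 in any library. The 58 members comprised 33 ligand genes, 24 receptor genes and 1 pseudogene, Ccl19-ps2.

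Bulk RNA sequencing was done on livers of mice that received GalNAc-conASO, a control oligonucleotide (genotype label WT), or GalNAc-Mdm2ASO (genotype label MDM2 knockdown). Mice of both treatments were fed either a diet labelled HFHC or CDAHFD, a high-fat diet that lacks choline and has a defined amino acid content, known for causing steatohepatitis. GalNAc is a sugar tag taken up by the asialoglycoprotein receptor of hepatocytes, so the oligonucleotide is directed at these cells and not at the leukocytes that carry most chemokine receptors. Mdm2 is the ubiquitin ligase that restrains p53. Age, sex, strain, dose and duration are not given in the sources used here. HFHC is named only by its abbreviation.

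Chemokines are small secreted proteins that attract leukocytes along a gradient by binding G protein-coupled receptors on the migrating cell. CC and CXC ligands are named for the spacing of their first cysteines, and 1 receptor usually answers several ligands. Atypical receptors bind chemokines without G protein signalling and mostly remove or transport them. In liver, hepatocytes, Kupffer cells, endothelium and stellate cells make ligands, while receptors mark the monocytes, neutrophils and lymphocytes that enter the tissue.

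Promoter sequence is shown first for 6 members on whose values the comparisons below turn. Cxcl10 and Cxcl9 share a receptor and lie on either side of 1 gene, and Cxcl1 and Cxcl2 are adjacent ligands of CXCR2. Ccrl2 and Ccr3 are the members that rose on HFHC and hold a match to the NF-kappa-B pattern searched here. Each sequence is the 250 bases before the transcript start in RefSeq on GRCm38.p6, read 5′ to 3′ on the gene's strand. Capitals mark matches on either strand to GGANNNTCC, a narrow form of the NF-kappa-B motif, or to the interferon-stimulated response element, searched as GAAA, any 2 bases and GAAA. Other forms of either motif are not marked. The windows are chr5:92348890-92349139, minus strand, for Cxcl10, chr5:92328080-92328329, minus strand, for Cxcl9, chr5:90890995-90891244, plus strand, for Cxcl1, chr5:90903649-90903898, plus strand, for Cxcl2, chr9:111057519-111057768, minus strand, for Ccrl2, and chr9:124021721-124021970, plus strand, for Ccr3.
Cxcl10: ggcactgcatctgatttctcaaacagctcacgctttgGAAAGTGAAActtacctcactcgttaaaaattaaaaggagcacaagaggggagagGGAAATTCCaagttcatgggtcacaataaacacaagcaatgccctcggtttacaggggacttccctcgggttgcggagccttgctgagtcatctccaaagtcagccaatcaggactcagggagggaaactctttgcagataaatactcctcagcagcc
Cxcl9: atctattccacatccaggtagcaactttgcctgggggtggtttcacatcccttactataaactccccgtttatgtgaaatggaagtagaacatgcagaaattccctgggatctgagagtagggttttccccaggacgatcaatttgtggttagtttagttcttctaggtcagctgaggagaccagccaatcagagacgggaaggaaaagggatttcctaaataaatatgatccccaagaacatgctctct
Cxcl1: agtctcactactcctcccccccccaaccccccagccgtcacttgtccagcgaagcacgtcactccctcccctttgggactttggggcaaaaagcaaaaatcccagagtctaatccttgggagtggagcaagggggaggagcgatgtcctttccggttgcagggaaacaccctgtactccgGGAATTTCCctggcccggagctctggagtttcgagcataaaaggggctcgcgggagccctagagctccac
Cxcl2: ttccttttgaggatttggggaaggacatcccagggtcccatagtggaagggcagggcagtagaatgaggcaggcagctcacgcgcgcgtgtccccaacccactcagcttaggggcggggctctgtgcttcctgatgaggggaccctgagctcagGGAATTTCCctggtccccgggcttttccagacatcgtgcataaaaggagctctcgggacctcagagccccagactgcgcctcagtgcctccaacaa
Ccrl2: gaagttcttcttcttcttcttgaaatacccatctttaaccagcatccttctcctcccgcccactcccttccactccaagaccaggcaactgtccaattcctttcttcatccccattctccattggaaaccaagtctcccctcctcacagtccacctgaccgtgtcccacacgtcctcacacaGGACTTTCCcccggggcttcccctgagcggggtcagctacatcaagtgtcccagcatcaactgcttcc
Ccr3: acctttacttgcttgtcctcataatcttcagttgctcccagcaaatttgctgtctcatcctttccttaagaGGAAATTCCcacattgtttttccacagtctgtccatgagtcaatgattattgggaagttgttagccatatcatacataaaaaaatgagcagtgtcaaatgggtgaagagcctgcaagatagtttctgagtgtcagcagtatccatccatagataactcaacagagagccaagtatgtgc

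Cxcl10 matched both patterns, the response element at -213 and the NF-kappa-B pattern at -158 from the start. Cxcl9 matched neither in this window, although it holds gggatttcc, a similar stretch that GGANNNTCC does not cover. The adjacent genes Cxcl1 and Cxcl2 both held the NF-kappa-B pattern, at -70 and -96. Over the whole 300-base windows of the RefSeq table (250 bases before and 50 after the start), 44 of the 58 members had an entry. GGANNNTCC occurred in 10 of these 44 windows (22.7%) and in 8.57% of 27025 promoters in the table. The response element occurred in 3 members (Ccl19, Cxcl10 and Cxcl14) and in 3.49% of promoters. Of 12 members with an entry that rose on HFHC, 2 held GGANNNTCC, and of 6 that fell on either diet 1 did. A match describes letters only.

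The 18 samples gave 17 libraries, because the HFHC Mdm2 ASO replicates 6 and 7 had the same value for every gene. They were counted as 1 library, and each of the other pairs within a group had unequal values for 18001 genes or more. This left 4 control and 3 Mdm2 ASO libraries on HFHC (17770748 to 18798144 reads) and 5 of each on CDAHFD (22376178 to 31453055 reads). Nothing in the labels states that the samples of a group came from separate animals, so p-values measure the spread between these samples. Mdm2 itself was at 907, 954, 963 and 956 normalized counts in HFHC controls and at 420.4, 362 and 304 with the Mdm2 ASO (log2 fold change -1.39, adjusted p = 1.1e-05). On CDAHFD, Mdm2 was at 1443, 1572, 1516, 1649.9 and 1644 in controls and at 861, 566, 646, 564 and 598 with the Mdm2 ASO (log2 fold change -1.29, adjusted p = 3.07e-05). The groups did not overlap on either diet, and every library matched its label for the targeted transcript. Of 13 mitochondrially encoded transcripts, a list added after the values were seen, 10 fell on HFHC (median log2 fold change -0.94) and 1 rose on CDAHFD. Another scaling moved the median of all genes on HFHC by -0.13 (quantile normalization) or 0.11 (library size). In bulk tissue, more cells of a type and more RNA per cell cannot be told apart.

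On HFHC, 9 receptors and 6 ligands rose with the Mdm2 ASO, among them the neighbouring ligands Ccl3, Ccl4, Ccl5 and Ccl6, with the largest fold changes for Ccr3, Cxcl13, Ccr1l1 and Ccl4, while the monocyte attractant Ccl2, the skin chemokine Ccl27a and the scavenger Ackr4 fell. On CDAHFD 5 ligands fell: Ccl2, Ccl6, Ccl9, Cxcl9 and Cxcl10. Ccl2 was the 1 member that fell on both diets in limma-trend, and Cxcl10 did so too in edgeR and DESeq2. Ccl6 was the 1 member that rose on HFHC and fell on CDAHFD, and its CDAHFD call was lost in 8 of 18 alternative analyses.

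On HFHC, 52 members passed the filter on low values and 18 changed (34.6%) at a Benjamini-Hochberg adjusted p under 0.05 in limma-trend. Of these, 15 were higher and 3 lower (12 and 6 under quantile normalization, 15 and 2 under library size scaling). The background is large: 30.6% of all 17441 genes tested changed, so the share of members changed is near that of all genes. By direction, 16.8% of all genes rose and 13.8% fell, against 28.8% and 5.77% of members. The median log2 fold change was 0.28 over members and -0.01 over all genes. Of the receptors, 9 of 22 tested rose and 1 fell (median 0.89), while 6 of 29 ligands rose and 2 fell (median -0.07). Among these 9 receptors, Ccr1l1 and Ccr3 met the filter on low values only through the Mdm2 ASO libraries, where they were high. Groups did not overlap for 14 members higher and 4 lower, where 20.7% and 18.0% of all genes were so placed. Without Mdm2 ASO replicate 9, 9 members rose.

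On CDAHFD, 49 members were tested and 5 (10.2%) changed, close to the 13.0% of all 16803 genes tested. All 5 were lower and 0 were higher in limma-trend, where 6.86% of all genes fell and 6.12% rose. The 5 were ligands (of 28 tested). Of 20 receptors tested, 0 passed in limma-trend, in edgeR or in DESeq2, and 0 had an unadjusted p under 0.05. Among all members 10 had an unadjusted p under 0.05, and edgeR and DESeq2 on the recovered reads each called 1 member higher, Ccl27a. The median log2 fold change was -0.20 over members and 0.00 over all genes. Groups did not overlap for 1 member higher (Ccl27a) and 4 lower (Ccl2, Ccl7, Ccl9 and Cxcl10), beside 4.95% and 5.62% of all genes. The 5 calls became 3 without control replicate 4 or without Mdm2 ASO replicate 8, and 8 without Mdm2 ASO replicate 10.

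The effect of the Mdm2 ASO differed between diets for 13 of 48 members (27.1%), beside 23.5% of all 16333 genes. In this interaction test (CDAHFD effect minus HFHC effect) 10 members were lower and 3 higher (10 and 1 under library size scaling), beside 13.6% and 9.83% of all genes. Those lower included Ccl3, Ccl4, Ccl6, Ccl9, Cxcl9, Cxcl14, Ccr3, Ccrl2 and Ackr2. The 3 that were higher were Ccl25, Ccl27a and Ackr4, of which 1 passed without HFHC control replicate 1.

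**Figure D1:**
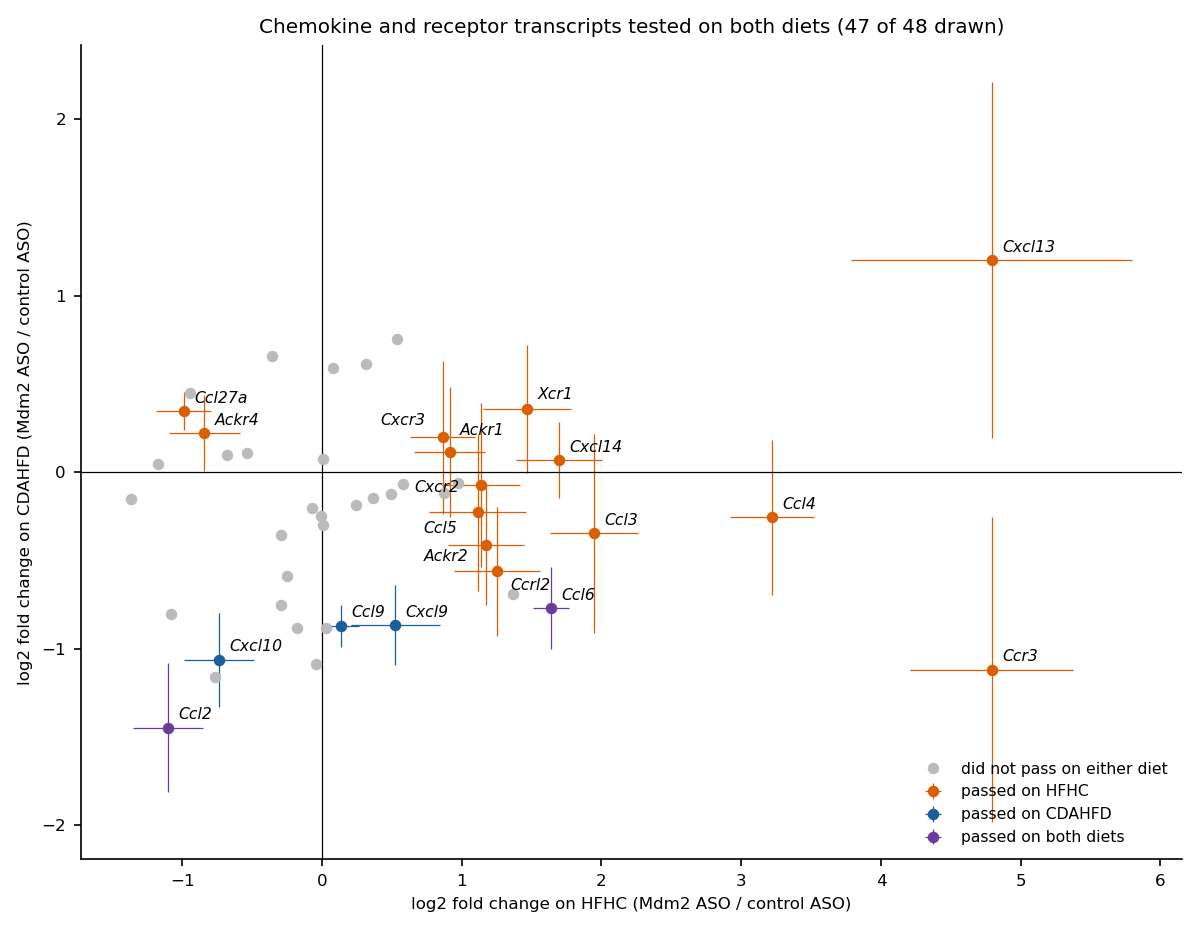
Each point is 1 of 47 members, of 48 tested on both diets with 1 not drawn, at its log2 fold change (Mdm2 ASO over control ASO) on HFHC (x axis) and on CDAHFD (y axis), with standard errors for members that passed on a diet (adjusted p under 0.05, limma-trend). Members that passed on HFHC lie mostly to the right, with CDAHFD values on both sides of 0. The named points below 0 on both axes are Ccl2, which passed on both diets, and Cxcl10, which passed on CDAHFD.

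Of the 5 inflammatory CC ligands Ccl3, Ccl4, Ccl5, Ccl6 and Ccl9, which attract monocytes, macrophages and T cells, 4 rose on HFHC (all but Ccl9), and 2 (Ccl6 and Ccl9) fell on CDAHFD. Values below follow the replicate order (HFHC controls 1, 2, 4 and 5, then Mdm2 ASO 6 with 7, 9 and 10; CDAHFD controls 1 to 5, then Mdm2 ASO 6 to 10). Ccl4, also known as MIP-1-beta, was at 42.3, 29.2, 35.6 and 23.0 normalized counts in HFHC controls and at 391, 380.2 and 181 with the Mdm2 ASO (log2 fold change 3.22 ± 0.30 (SE) at an adjusted p = 4.41e-05). Every treated library stood above every control, including the lowest, replicate 10. On CDAHFD, Ccl4 was at 20.4, 44.4, 55.0, 48.3 and 66.4 in controls and at 30.4, 85.8, 12.5, 45.9 and 43.0 with the Mdm2 ASO (log2 fold change -0.26 ± 0.44 (SE) at an adjusted p = 0.748). These groups overlapped, and the effect differed between diets (-3.48 ± 0.64 (SE) on the log2 scale, adjusted p = 0.000597).

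Ccl3, or MIP-1-alpha, a relative of Ccl4 that binds CCR1, was at 31.0, 25.8, 23.7 and 23.0 in HFHC controls and at 147, 122 and 56.6 with the Mdm2 ASO (log2 fold change 1.95 ± 0.32 (SE) at an adjusted p = 0.00149). Replicate 10 was again the lowest treated library, and the groups did not overlap. In the CDAHFD livers, Ccl3 was at 6.44, 9.25, 53.2, 22.6 and 47.7 in controls and 10.5, 17.8, 9.07, 19.1 and 31.7 with the Mdm2 ASO (log2 fold change -0.35 ± 0.56 (SE) at an adjusted p = 0.734), with controls spread widely on either side of the treated libraries. The diets differed in the effect on Ccl3 (-2.29 ± 0.78 (SE) on the log2 scale, adjusted p = 0.0405). Ccl3 lost that call without HFHC control ASO replicate 2, 4 or 5 or HFHC Mdm2 ASO replicate 6 with 7 or 9 or CDAHFD control ASO replicate 3, 4 or 5 or CDAHFD Mdm2 ASO replicate 6, 7 or 8 (adjusted p from 0.0517 to 0.108), with a replicate block (adjusted p = 0.177).

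Ccl5, or RANTES, made by T and NK cells among others, was at 231, 99.9, 205 and 96.9 in HFHC controls and at 222, 436 and 330.4 with the Mdm2 ASO (log2 fold change 1.11 ± 0.35 (SE) at an adjusted p = 0.0358). Control replicate 1 lay above the lowest treated library, replicate 6 with 7, so the groups overlapped. Ccl5 lost its call without control ASO replicate 2 or 5 or Mdm2 ASO replicate 9 or 10 (adjusted p from 0.081 to 0.146), under quantile normalization (adjusted p = 0.0594). On CDAHFD, Ccl5 averaged 232 ± 105 (SD, n = 5) in controls and 235 ± 171 (SD, n = 5) with the Mdm2 ASO, and did not pass (log2 fold change -0.23, adjusted p = 0.781).

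Ccl6, a rodent CCR1 ligand made by macrophages and other myeloid cells, moved in opposite directions on the diets. It was at 292, 447, 349 and 385 in HFHC controls and at 1078, 1139 and 1189 with the Mdm2 ASO (log2 fold change 1.64 ± 0.13 (SE) at an adjusted p = 1.52e-05) and had the smallest SE of the 18 members called on HFHC. Every treated library stood above every control. On CDAHFD, Ccl6 was at 222, 494, 291, 458 and 429 in controls and at 183, 177, 180.3, 214 and 347 with the Mdm2 ASO (log2 fold change -0.77 ± 0.23 (SE) at an adjusted p = 0.043). There, treated replicate 10 lay among the controls and the other 4 treated libraries lay below every control. Ccl6 lost the CDAHFD call without control ASO replicate 2, 4 or 5 or Mdm2 ASO replicate 6, 7, 8 or 9 (adjusted p from 0.0707 to 0.12), under no filter (adjusted p = 0.0517). The difference between diets was -2.41 ± 0.33 (SE) on the log2 scale, adjusted p = 3.17e-05.

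Ccl9, a neighbour and relative of Ccl6 that also binds CCR1, was at 1659, 2014, 1626, 1927 and 1811 in CDAHFD controls and at 769, 1053, 876, 1053 and 1243 with the Mdm2 ASO (log2 fold change -0.87 ± 0.12 (SE) at an adjusted p = 0.000651). All treated libraries were lower than all controls. On HFHC, Ccl9 was at 582, 800.4, 722 and 628 in controls and at 728, 667 and 854 with the Mdm2 ASO (log2 fold change 0.14 ± 0.13 (SE) at an adjusted p = 0.449), and the groups overlapped. The difference between diets was -1.01 ± 0.19 (SE) on the log2 scale, adjusted p = 0.000686. Ccl6 and Ccl9 thus shared a fall on CDAHFD, while on HFHC Ccl6 passed and Ccl9 did not.

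Ccr1, the receptor of Ccl3, Ccl5, Ccl6 and Ccl9 on monocytes and neutrophils, did not pass on either diet (log2 fold change -0.01, adjusted p = 0.986 on HFHC, and -0.25, adjusted p = 0.69 on CDAHFD).

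Ccr1l1, a receptor gene closely related to Ccr1, was nearly silent in controls. It had 0, 0, 0 and 0.999 normalized counts in HFHC controls and 10.2, 7.57 and 8.08 with the Mdm2 ASO, that is 1 read against 27. No HFHC control reached the filter value of 1, so Ccr1l1 was tested only because the treated libraries did. Its adjusted p is therefore no separate support for the rise. The ratio of reads, scaled by the normalization of each library, was 32.7 (exact 95% interval 5.39 to 1339, counting error only). In limma-trend the adjusted p was 0.00116. On CDAHFD, Ccr1l1 was not tested. The reads were 1 in controls and 12 with the Mdm2 ASO (ratio 13.8 with the same scaling, interval 2.04 to 588). The treated libraries had 7.33, 3.14, 1.13, 0.957 and 0 normalized counts.

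**Figure D2:**
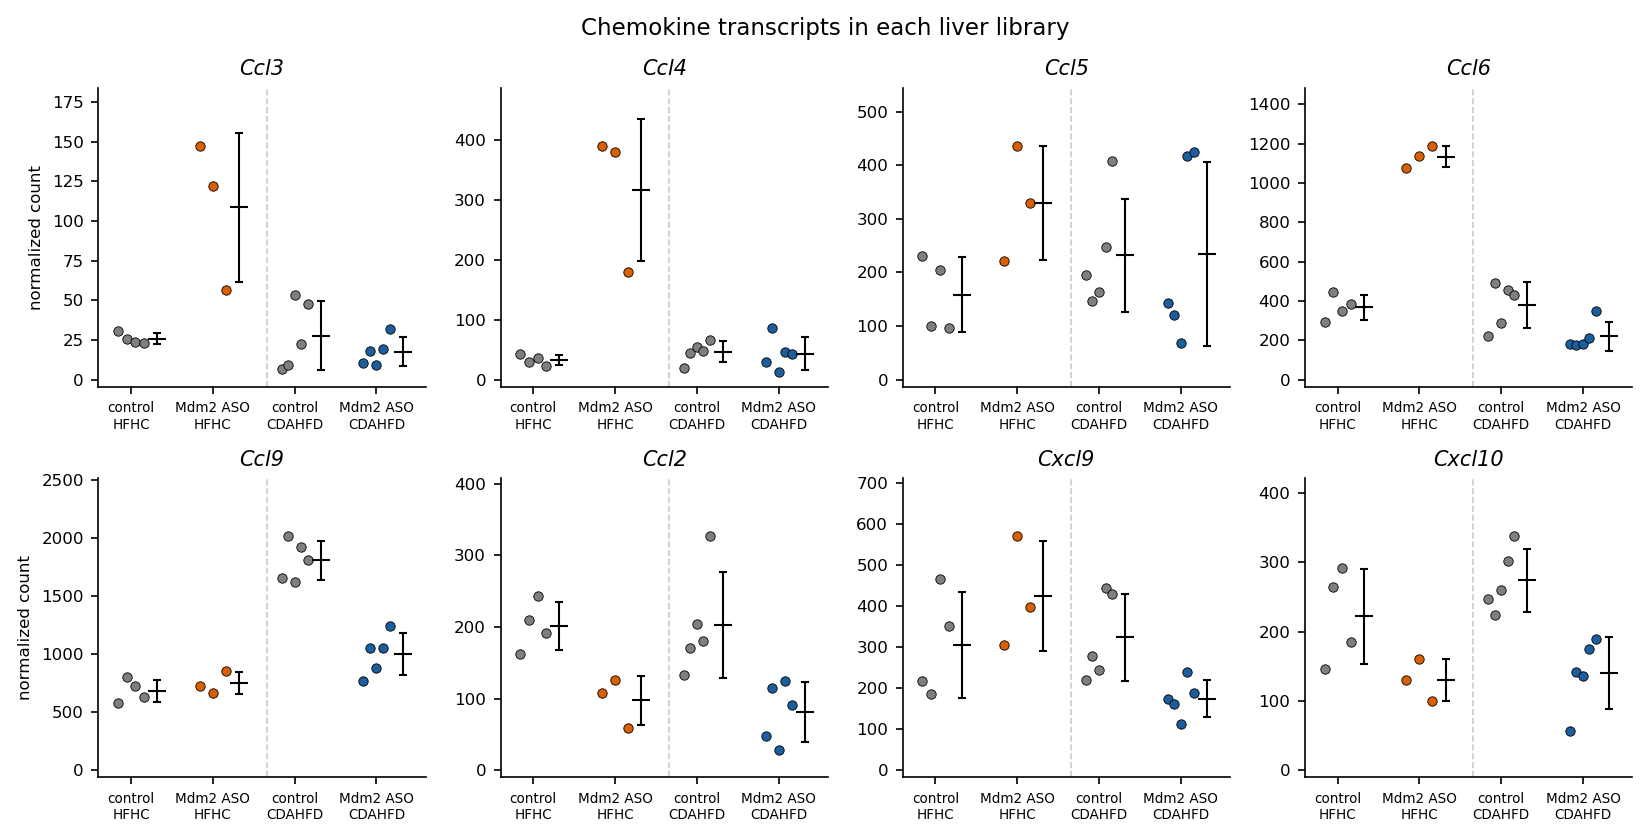
Normalized counts (y axis, linear, 1 panel per ligand) in each of the 17 libraries, by treatment and diet (x axis); points are libraries, and the bar beside each group is the mean with 1 SD. Ccl3, Ccl4 and Ccl6 are higher with the Mdm2 ASO on HFHC without overlap, Ccl2 is lower on both diets, and Ccl9 and Cxcl10 are lower on CDAHFD without overlap.

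The ligands of CCR2, which draws monocytes out of bone marrow and into tissue, held 1 call on each diet in limma-trend, a fall of the same gene. Ccl2, or MCP-1, the main monocyte attractant, was at 162, 209.9, 243 and 192 in HFHC controls and at 107, 126 and 58.6 with the Mdm2 ASO (log2 fold change -1.10 ± 0.25 (SE) at an adjusted p = 0.00911). On CDAHFD, Ccl2 was at 133, 171, 204, 179.7 and 326 in controls and at 47.1, 115, 28.3, 124 and 91.6 with the Mdm2 ASO (log2 fold change -1.45 ± 0.37 (SE) at an adjusted p = 0.0195). All treated libraries were below all controls on both diets, and the effect did not pass as different between them (-0.34 ± 0.54 (SE) on the log2 scale, adjusted p = 0.702). Both calls of Ccl2 held in every alternative analysis that was run.

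Ccl7, or MCP-3, lies beside Ccl2 and was at 29.0, 28.7, 33.0, 34.6 and 36.5 in CDAHFD controls and at 13.6, 25.1, 4.53, 18.2 and 19.2 with the Mdm2 ASO (log2 fold change -1.16 ± 0.39 (SE) at an adjusted p = 0.0653). These groups did not overlap. Ccl7 missed the threshold in limma-trend and edgeR and was called lower in DESeq2. On HFHC the log2 fold change of Ccl7 was -0.77, adjusted p = 0.213. Ccl8 and Ccl12 were scarce, with at most 15.1 and 5.64 normalized counts in any library, and did not pass where tested. Ccr2 itself missed the threshold on both diets (log2 fold change 0.50, adjusted p = 0.103, on HFHC, and -0.12, adjusted p = 0.713, on CDAHFD).

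The interferon-induced ligands of CXCR3, which guide effector T and NK cells, both fell on CDAHFD. Cxcl10 was at 247, 225, 259.6, 301 and 337 in CDAHFD controls and at 56.6, 142, 136, 175 and 190.0 with the Mdm2 ASO (log2 fold change -1.06 ± 0.27 (SE) at an adjusted p = 0.0186), without overlap. On HFHC, Cxcl10 was at 146, 265, 292 and 185 in controls and at 131, 161 and 100.025 with the Mdm2 ASO (log2 fold change -0.74 ± 0.25 (SE) at an adjusted p = 0.0528). That value was lower but missed the threshold, and control replicate 1 lay within the treated range. Without that control, the adjusted p was 0.0162, and it was also under the threshold in edgeR (0.0453) and DESeq2 (0.0158) on the recovered reads. Art3, which shares 133 exonic bases with Cxcl10 on the opposite strand (GENCODE M21), rose on HFHC (log2 fold change 0.92, adjusted p = 0.0395) and did not pass on CDAHFD (0.14, adjusted p = 0.766).

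Cxcl9, the neighbour of Cxcl10, was at 219.9, 279, 244, 446 and 431 in CDAHFD controls and at 173, 162, 112, 239 and 188 with the Mdm2 ASO (log2 fold change -0.87 ± 0.23 (SE) at an adjusted p = 0.0224). Treated replicate 9 lay within the control range. Cxcl9 lost this call without control ASO replicate 4 or Mdm2 ASO replicate 8 (adjusted p from 0.058 to 0.0611). On HFHC, Cxcl9 was at 218, 185, 467 and 353 in controls and at 307, 570.3 and 397 with the Mdm2 ASO (log2 fold change 0.52 ± 0.32 (SE) at an adjusted p = 0.245). The diets differed in the effect on Cxcl9 (-1.39 ± 0.42 (SE) on the log2 scale, adjusted p = 0.0211), a call that was lost without HFHC Mdm2 ASO replicate 9 (adjusted p = 0.0768), while for Cxcl10 they did not pass as different (-0.33 ± 0.42 (SE) on the log2 scale, adjusted p = 0.631).

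Cxcr3, the receptor of Cxcl9 and Cxcl10, was at 20.6, 19.1, 20.5 and 23.0 in HFHC controls and at 31.5, 47.3 and 37.4 with the Mdm2 ASO (log2 fold change 0.86 ± 0.23 (SE) at an adjusted p = 0.0203), without overlap. Cxcr3 lost its call without Mdm2 ASO replicate 9 or 10 (adjusted p from 0.0508 to 0.108), under quantile normalization (adjusted p = 0.0786). On CDAHFD it did not pass (log2 fold change 0.20, adjusted p = 0.807). Of 9 T cell markers tested on HFHC 1 rose (summed level 186 to 426 in controls and 328 to 577 with the Mdm2 ASO). Of 8 NK cell markers 4 rose (summed level 146 to 200.2 in controls and 344 to 436 with the Mdm2 ASO). Their part in the Cxcr3 value was not tested.

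The ligands of CXCR2, the main receptor for neutrophil recruitment, were not called on either diet in limma-trend or edgeR, although all 3 tested (Cxcl1, Cxcl2 and Cxcl5) had an unadjusted p under 0.05 on CDAHFD in limma-trend, and DESeq2 called 1 of them, Cxcl1, lower there. Cxcl1, the most abundant of them, was at 396, 448, 601, 683 and 694 in CDAHFD controls and at 209, 462, 219.9, 273 and 538 with the Mdm2 ASO (log2 fold change -0.80 ± 0.25 (SE) at an adjusted p = 0.0526). Cxcl2, or MIP-2, was at 45.1, 117, 64.2, 67.7 and 86.9 in CDAHFD controls and at 16.8, 36.6, 30.6, 52.6 and 90.5 with the Mdm2 ASO (log2 fold change -0.88 ± 0.38 (SE) at an adjusted p = 0.146). For Cxcl5 the log2 fold change was -1.09, adjusted p = 0.107. Treated replicates 7 and 10 reached the control range for Cxcl1, and replicates 9 and 10 did so for Cxcl2. On HFHC the log2 fold changes were -1.08, adjusted p = 0.163, for Cxcl1, -0.18, adjusted p = 0.739, for Cxcl2, and -0.04, adjusted p = 0.958, for Cxcl5.

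Cxcr2 itself was at 11.4, 10.1, 8.63 and 7.99 in HFHC controls and at 23.2, 20.8 and 20.2 with the Mdm2 ASO (log2 fold change 1.14 ± 0.28 (SE) at an adjusted p = 0.0133). The groups stood well apart at these low counts. Cxcr2 lost its call without Mdm2 ASO replicate 6 with 7 or 9 (adjusted p from 0.0526 to 0.053). On CDAHFD, Cxcr2 averaged 8.68 ± 3.70 (SD, n = 5) in controls and 8.49 ± 4.39 (SD, n = 5) with the Mdm2 ASO (log2 fold change -0.08, adjusted p = 0.935). All 10 neutrophil markers rose on HFHC, with a summed level of 241 to 572 in controls and 2970.4 to 4133 with the Mdm2 ASO (ranges over libraries). On CDAHFD 0 of 9 tested neutrophil markers passed in limma-trend, edgeR or DESeq2, and 0 had an unadjusted p under 0.05. The part of these cells in the Cxcr2 value was not tested. Cxcr1, the sister receptor, did not pass on HFHC (log2 fold change -0.25, adjusted p = 0.803).

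Ccr3, the eotaxin receptor known from eosinophils and basophils, had the largest fitted fold change of the members on HFHC together with Cxcl13. It was at 1.03, 0, 1.08 and 0 in HFHC controls and at 30.6, 24.6 and 18.2 with the Mdm2 ASO, that is 2 reads against 77. Too few HFHC controls reached the filter value of 1, so Ccr3 was tested only because treated libraries did. The ratio of reads, scaled by the normalization of each library, was 46.6 (exact 95% interval 12.5 to 392). In limma-trend the log2 fold change was 4.79 ± 0.58 (SE) at an adjusted p = 0.000246, a fold that depends on the pseudocount. On CDAHFD, Ccr3 was at 5.36, 2.77, 4.59, 0 and 2.80 in controls and at 1.05, 0, 0, 4.79 and 1.13 with the Mdm2 ASO (log2 fold change -1.12 ± 0.86 (SE) at an adjusted p = 0.429). The effect differed between diets (-5.91 ± 1.17 (SE) on the log2 scale, adjusted p = 0.00115). Without CDAHFD control replicate 4, which had no Ccr3 read, that difference was -6.53.

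The eotaxins, ligands of Ccr3, gave no call: Ccl24 had a log2 fold change of -0.29, adjusted p = 0.614 on HFHC, and Ccl11 stayed at or under 3.39 normalized counts in every library. Among 8 eosinophil markers, a list added after the values were seen, 5 were tested on HFHC. Ear2 (log2 fold change 2.23, adjusted p = 3.91e-06) and Prg2 (2.19, adjusted p = 0.0435) rose, Siglecf fell (-1.08, adjusted p = 0.0414), and Ear6 was at 0 in every HFHC library. The summed level was 140.4 to 192 in controls and 663 to 804 with the Mdm2 ASO. Of 5 basophil and mast cell markers, also added later, Mcpt8 rose (2.53, adjusted p = 0.0234), and the summed level was 1.12 to 6.19 in controls and 9.46 to 26.9 with the Mdm2 ASO. In DESeq2, Ear2 was the 1 of these 4 genes that passed. The part of these cells in the Ccr3 value was not tested.

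**Figure D3:**
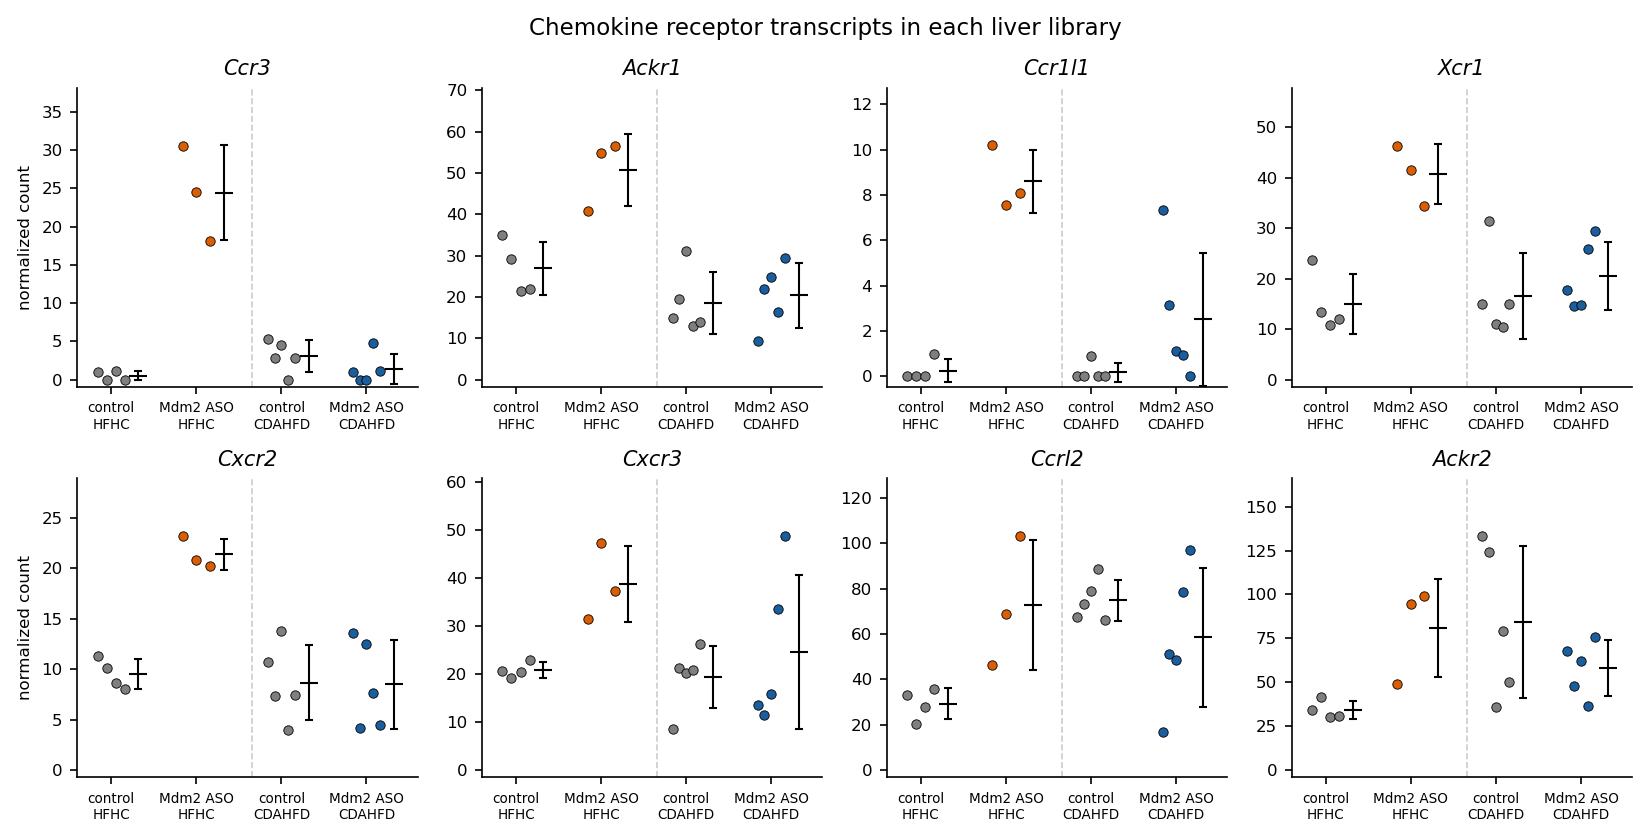
Normalized counts (y axis, linear, 1 panel per receptor) in each library by treatment and diet (x axis); points are libraries, and bars show the mean with 1 SD. In all 8 panels the 3 Mdm2 ASO libraries on HFHC lie above the 4 controls, while the CDAHFD groups overlap.

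Cxcl13, the attractant of B cells to follicles through CXCR5, was at 1.03, 16.8, 1.08 and 25.0 in HFHC controls and at 232, 201 and 83.9 with the Mdm2 ASO (log2 fold change 4.79 ± 1.00 (SE) at an adjusted p = 0.00609). Controls fell into a low pair (replicates 1 and 4) and a higher pair (2 and 5), and the treated libraries lay above both. Leaving out HFHC control replicate 1, 4 or 5 moved the linear fold by over 1.5 times, within a range of log2 fold changes from 4.16 to 5.51 with 1 library left out, and no such step ended the call. On CDAHFD, Cxcl13 stayed at or under 13.6 normalized counts (log2 fold change 1.20, adjusted p = 0.476), and the difference between diets did not pass (-3.59 ± 1.59 (SE) on the log2 scale, adjusted p = 0.112). Cxcr5 was at 6.19, 4.49, 8.63 and 5.00 in HFHC controls and at 24.1, 27.4 and 6.06 with the Mdm2 ASO (log2 fold change 1.37 ± 0.53 (SE) at an adjusted p = 0.0805), with replicate 10 inside the control range. It missed the threshold in limma-trend and was called higher in edgeR and DESeq2. Of 8 B cell markers 6 rose on HFHC (summed level 529 to 1439 in controls and 2473 to 4569 with the Mdm2 ASO), and 1, Ighm, rose on CDAHFD. Their part in the Cxcl13 value was not tested.

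Cxcl12, the ligand of CXCR4 that retains leukocytes and is made by stromal and endothelial cells, was the most abundant chemokine transcript and varied little. It averaged 5651 ± 476 (SD, n = 4) in HFHC controls and 5407 ± 740.5 (SD, n = 3) with the Mdm2 ASO (log2 fold change -0.07, adjusted p = 0.68), and 6267 ± 832 and 5436 ± 645 (SD, n = 5 each) on CDAHFD (-0.20, adjusted p = 0.232). Cxcr4 missed the threshold on both diets (0.36, adjusted p = 0.348, and -0.15, adjusted p = 0.698). Cxcl16, a membrane-bound ligand and scavenger receptor, had a log2 fold change of 0.01, adjusted p = 0.972 on HFHC, and its receptor Cxcr6 one of 0.03, adjusted p = 0.942.

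Xcr1, the receptor that marks cross-presenting dendritic cells, was at 23.7, 13.5, 10.8 and 12.0 in HFHC controls and at 46.3, 41.6 and 34.4 with the Mdm2 ASO (log2 fold change 1.47 ± 0.31 (SE) at an adjusted p = 0.00673), without overlap. On CDAHFD, Xcr1 averaged 16.6 ± 8.58 and 20.5 ± 6.76 (SD, n = 5 each), and the difference between diets did not pass (-1.11 ± 0.50 (SE) on the log2 scale, adjusted p = 0.12). Its ligand Xcl1 had a log2 fold change of 0.32, adjusted p = 0.652 on HFHC. Of 9 dendritic cell markers 4 rose on HFHC (summed level 3791 to 5300.4 in controls and 8978 to 10812 with the Mdm2 ASO), and their part in the Xcr1 value was not tested. Cx3cr1, the fractalkine receptor of patrolling monocytes, was at 245, 92.1, 102 and 156 in HFHC controls and at 216, 335 and 223 with the Mdm2 ASO (log2 fold change 0.87 ± 0.32 (SE) at an adjusted p = 0.0645). It missed the threshold in limma-trend and edgeR and was called higher in DESeq2. Its ligand Cx3cl1 moved the other way without passing (-0.94, adjusted p = 0.236).

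Cxcl14, a conserved chemokine whose receptor is debated, was at 196, 64.0, 106 and 143 in HFHC controls and at 352, 408 and 387 with the Mdm2 ASO (log2 fold change 1.70 ± 0.31 (SE) at an adjusted p = 0.00298). All 3 treated libraries stood above all controls. On CDAHFD, Cxcl14 was at 123, 148, 168, 164 and 179 in controls and at 103, 206, 119, 226 and 199 with the Mdm2 ASO (log2 fold change 0.07 ± 0.22 (SE) at an adjusted p = 0.872). Treated libraries fell on both sides of the controls there, and the effect differed between diets (-1.63 ± 0.40 (SE) on the log2 scale, adjusted p = 0.00587).

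Of 3 ligands of CCR9 and CCR10, 1 fell on HFHC. Ccl27a, a CCR10 ligand best known from skin, was at 172, 226, 201 and 178 in HFHC controls and at 132, 94.6 and 72.7 with the Mdm2 ASO (log2 fold change -0.99 ± 0.20 (SE) at an adjusted p = 0.0048). On CDAHFD, Ccl27a was at 212, 191, 219, 201 and 236 in controls and at 266, 295, 261, 286 and 239.8 with the Mdm2 ASO (log2 fold change 0.35 ± 0.11 (SE) at an adjusted p = 0.0513). The groups did not overlap on either diet, in opposite directions, and the difference between diets was 1.34 ± 0.21 (SE) on the log2 scale, adjusted p = 0.000147. Il11ra1, which shares 8 exonic bases with Ccl27a on the opposite strand, was also lower on HFHC (log2 fold change -0.26, adjusted p = 0.035) and higher on CDAHFD (0.35, adjusted p = 0.0137). Ccl27a passed on CDAHFD in edgeR (adjusted p = 0.048) and DESeq2 (0.0145), without control replicate 5 (0.0477) and without Mdm2 ASO replicate 10 (0.0407). It has a near-identical copy, Ccl27b, so its count is uncertain.

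Ccl25, the CCR9 ligand of gut and thymus, was at 167, 140.3, 142 and 173 in HFHC controls and at 143, 81.3 and 104 with the Mdm2 ASO (log2 fold change -0.54 ± 0.19 (SE) at an adjusted p = 0.0576). On CDAHFD, Ccl25 was at 129.8, 109, 135, 115 and 115 in controls and at 118, 128, 152, 125 and 128 with the Mdm2 ASO (log2 fold change 0.11 ± 0.14 (SE) at an adjusted p = 0.652). Without Mdm2 ASO replicate 6 with 7, Ccl25 passed on HFHC (adjusted p = 0.00947). With all libraries, only the difference between diets passed (0.65 ± 0.22 (SE) on the log2 scale, adjusted p = 0.0392), and Ccl25 lost it without HFHC control ASO replicate 1 or 5 or HFHC Mdm2 ASO replicate 9 or 10 or CDAHFD control ASO replicate 2, 4 or 5 or CDAHFD Mdm2 ASO replicate 7 or 8 (adjusted p from 0.0501 to 0.154), under library size scaling (adjusted p = 0.134), under the count of identical samples as separate (adjusted p = 0.0686), with a replicate block (adjusted p = 0.111).

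The ligands of CCR4, CCR6, CCR7 and CCR8 gave no call in limma-trend. Ccl22, a CCR4 ligand made by dendritic cells and macrophages, was at 54.7, 30.3, 34.5 and 42.0 in HFHC controls and at 8.33, 28.4 and 21.2 with the Mdm2 ASO (log2 fold change -1.17 ± 0.41 (SE) at an adjusted p = 0.0547), without overlap. It missed the threshold in limma-trend and edgeR and was called lower in DESeq2. Ccl19 and Ccl21a, which guide dendritic cells through CCR7, had log2 fold changes of 0.54, adjusted p = 0.213 and -0.68, adjusted p = 0.556 on HFHC. Ccl21a belongs to a family of near-identical copies and its count is uncertain. Ccl17, another CCR4 ligand, and Ccl28, which binds CCR10, stayed at or under 11.3 and 19.6 normalized counts and did not pass on either diet. The lymphocyte and dendritic cell receptors Ccr6 (1.52, adjusted p = 0.165), Ccr7 (0.24, adjusted p = 0.629), Ccr9 (0.97, adjusted p = 0.155) and Ccr10 (-1.37, adjusted p = 0.275) did not pass on HFHC, nor, where tested, on CDAHFD. The pseudogene Ccl19-ps2 stayed at or under 11.5 and did not pass. Ccl1, Ccl20, Cxcl3, Cxcl17, Ccr4 and Ccr8 did not pass the filter on HFHC, and Ccl1, Ccl8, Ccl11, Cxcl3, Cxcl17, Ccr1l1, Ccr4, Ccr6 and Ccr8 did not pass it on CDAHFD.

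Atypical receptors, which bind chemokines without signalling through G proteins, were called on HFHC in 4 of 5 cases, where 30.6% of all genes tested changed. Each of these calls was lost in some alternative analysis. Ackr2, which degrades inflammatory CC chemokines such as Ccl2 and Ccl5, was at 34.1, 41.5, 30.2 and 31.0 in HFHC controls and at 49.1, 94.6 and 99.0 with the Mdm2 ASO (log2 fold change 1.17 ± 0.27 (SE) at an adjusted p = 0.00985), and lost its call without Mdm2 ASO replicate 9 (adjusted p = 0.055). On CDAHFD, Ackr2 was at 133, 124, 35.8, 79.0 and 50.5 in controls and at 68.1, 48.1, 62.4, 36.4 and 75.8 with the Mdm2 ASO (log2 fold change -0.41 ± 0.34 (SE) at an adjusted p = 0.476). Control replicates 1, 2 and 4 stood above every treated library and replicate 3 below all of them. For Ackr2 the difference between diets was -1.58 ± 0.51 (SE) on the log2 scale, adjusted p = 0.0297, lost without HFHC control ASO replicate 4 or 5 or HFHC Mdm2 ASO replicate 9 or 10 or CDAHFD control ASO replicate 2 or CDAHFD Mdm2 ASO replicate 9 (adjusted p from 0.0502 to 0.083), under quantile normalization (adjusted p = 0.0892).

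Ccrl2, which presents the attractant chemerin, was at 33.0, 20.2, 28.0 and 36.0 in HFHC controls and at 46.3, 69.0 and 103 with the Mdm2 ASO (log2 fold change 1.26 ± 0.31 (SE) at an adjusted p = 0.013), and lost its call without Mdm2 ASO replicate 9 or 10 (adjusted p from 0.0502 to 0.0504). On CDAHFD, Ccrl2 was at 67.6, 73.1, 78.9, 88.6 and 66.4 in controls and at 16.8, 51.3, 48.8, 78.5 and 97.3 with the Mdm2 ASO (log2 fold change -0.56 ± 0.37 (SE) at an adjusted p = 0.34). Treated libraries there ranged from far below to above the controls. The difference between diets for Ccrl2 was -1.82 ± 0.55 (SE) on the log2 scale, adjusted p = 0.0221, lost without HFHC Mdm2 ASO replicate 10 (adjusted p = 0.0726).

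Ackr1, the Duffy antigen of venules and red blood cells that carries chemokines across endothelium, was at 35.1, 29.2, 21.6 and 22.0 in HFHC controls and at 40.7, 54.9 and 56.6 with the Mdm2 ASO (log2 fold change 0.91 ± 0.25 (SE) at an adjusted p = 0.0221). Ackr1 lost its call without control ASO replicate 4 or 5 or Mdm2 ASO replicate 9 or 10 (adjusted p from 0.0544 to 0.0917), under quantile normalization (adjusted p = 0.0855). Cadm3, which shares 361 exonic bases (25.7% of Ackr1) on the same strand, also rose on HFHC (log2 fold change 0.80, adjusted p = 0.00726), and reads from the shared exon cannot be told apart. All 6 red blood cell markers tested rose on HFHC (summed level 1879 to 3395 in controls and 6905 to 16628 with the Mdm2 ASO), and their part in the Ackr1 value was not tested. On CDAHFD, Ackr1 did not pass (0.12, adjusted p = 0.872).

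Ackr4, a scavenger of Ccl19, Ccl21 and Ccl25, was the receptor that fell on HFHC, from 143, 135, 85.2 and 94.9 in controls to 43.5, 72.8 and 75.8 with the Mdm2 ASO (log2 fold change -0.84 ± 0.26 (SE) at an adjusted p = 0.0333). Ackr4 lost its call without control ASO replicate 1 or 2 or Mdm2 ASO replicate 6 with 7 or 9 (adjusted p from 0.0562 to 0.0993), under library size scaling (adjusted p = 0.0595). On CDAHFD, Ackr4 was at 53.6, 34.2, 43.1, 36.3 and 43.0 in controls and at 44.0, 42.9, 48.8, 64.1 and 45.2 with the Mdm2 ASO (log2 fold change 0.22 ± 0.21 (SE) at an adjusted p = 0.544). The difference between diets for Ackr4 was 1.06 ± 0.32 (SE) on the log2 scale, adjusted p = 0.0225, lost without HFHC control ASO replicate 1 or HFHC Mdm2 ASO replicate 6 with 7 (adjusted p from 0.0515 to 0.0893), under library size scaling (adjusted p = 0.0502). Acad11, which overlaps 479 exonic bases of Ackr4 on the opposite strand and averaged 6411 ± 418 normalized counts (SD, n = 4) in HFHC controls, fell on HFHC too (-0.36, adjusted p = 0.03). Ackr3, which clears Cxcl12, missed the threshold on both diets (0.08, adjusted p = 0.869, and 0.59, adjusted p = 0.335).

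Many members are clustered in the genome, and neighbours did not always move together. In the RefSeq gene order, Ccl5, Ccl9, Ccl6, Ccl3 and Ccl4 follow each other on chromosome 11, and 4 of these 5 rose on HFHC, with Ccl9 as the exception in their midst. The other run on chromosome 11 (Ccl2, Ccl7, Ccl11, Ccl12, Ccl8 and Ccl1) held 1 call, the fall of Ccl2. On chromosome 9, Xcr1, Ccr1, Ccr1l1, Ccr3 and Ccr2 are consecutive, and Xcr1, Ccr1l1 and Ccr3 rose on HFHC while Ccr1 and Ccr2 did not pass. On chromosome 5, Ppbp and Pf4, the platelet chemokines, lie between Cxcl5 and Cxcl3. These neighbours rose on HFHC (4.66, adjusted p = 3.75e-06, for Ppbp, and 1.55, adjusted p = 0.00194, for Pf4), while Cxcl5, Cxcl1 and Cxcl2 missed the threshold.

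**Figure D4:**
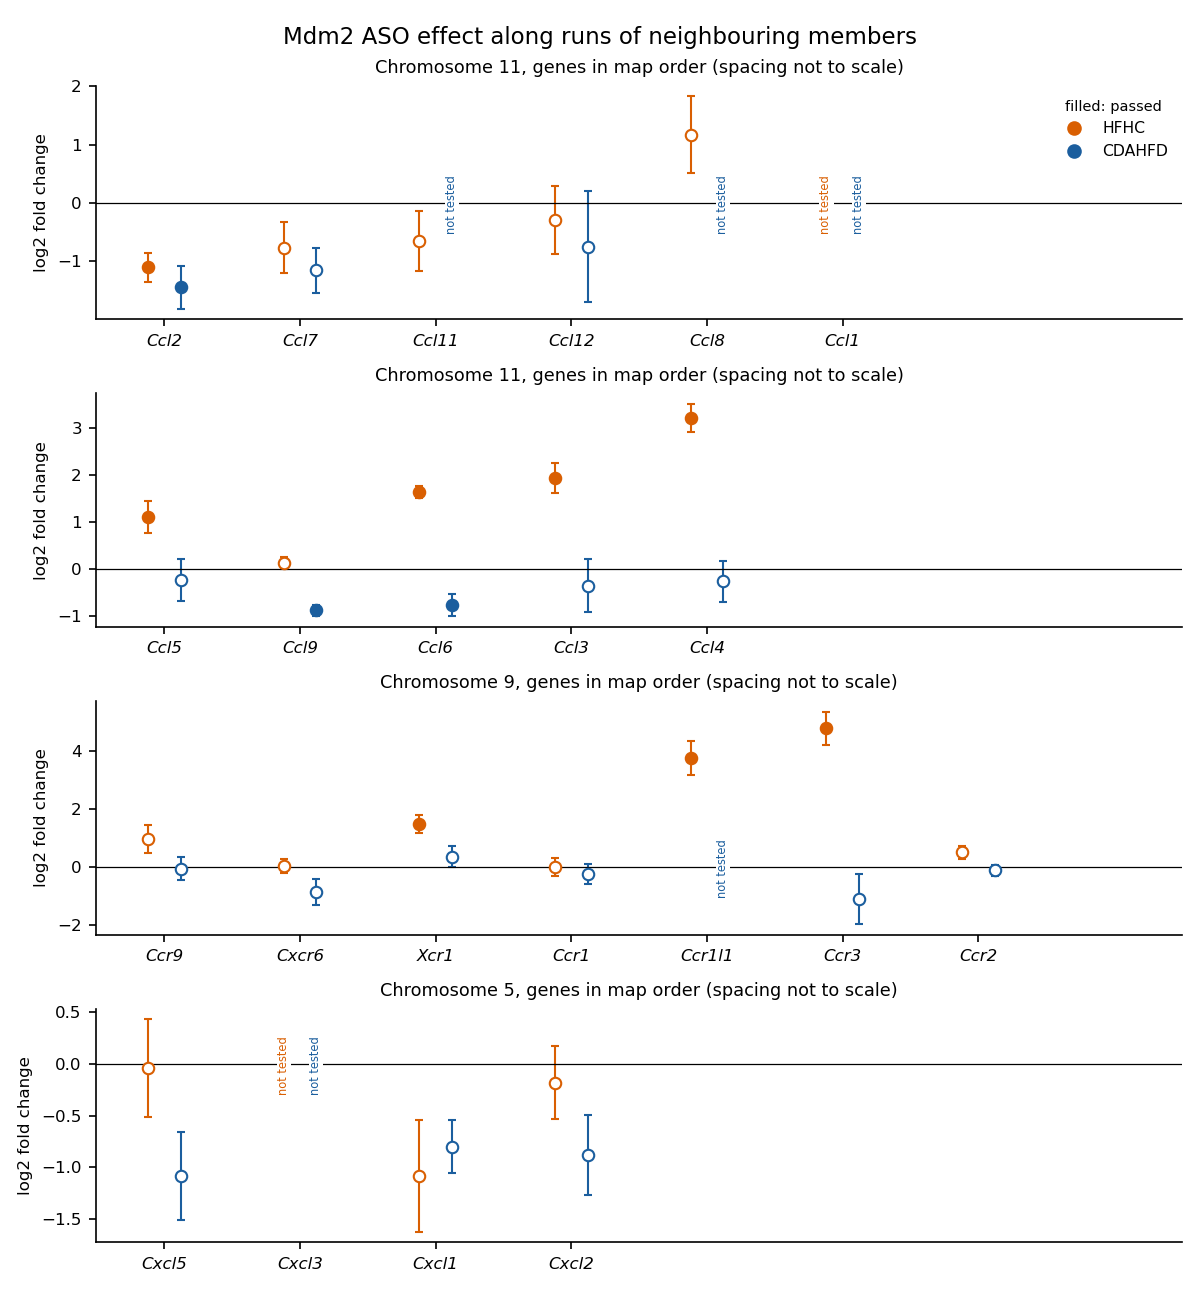
Log2 fold change with its standard error (y axis) of members in 4 runs of neighbouring genes, in map order (x axis, not to scale), with HFHC in orange and CDAHFD in blue and filled points where the adjusted p was under 0.05. Ccl5, Ccl6, Ccl3 and Ccl4 are filled and above 0 on HFHC around an open Ccl9, and the chromosome 9 panel shows filled Ccr1l1 and Ccr3 beside open Ccr1 and Ccr2.

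Per kilobase of exon (GENCODE M21, lengths for 57 of 58 members), Cxcl12 had the highest mean level on both diets, at 691 ± 58.3 (SD, n = 4) normalized counts per kilobase in HFHC controls and 766 ± 102 (SD, n = 5) in CDAHFD controls. Cxcl1 followed on HFHC at 358 ± 164, then Ccl9 at 224 ± 32.0 and Ccl6 at 205 ± 36.1. Cxcl12 did not overlap Cxcl1 there, while Cxcl1, Ccl9 and Ccl6 overlapped each other. On CDAHFD, Ccl9 followed at 594 ± 55.0, with libraries (534 to 661) that overlapped those of Cxcl12 (649 to 873). It lay above every library of Cxcl1 at 301 ± 72.6, which overlapped Ccl5 at 242 ± 109.9. The diets are in separate tables, so levels were not compared across them. With the Mdm2 ASO on HFHC, Ccl6 at 632 ± 31.0 and Ccl4 at 481 ± 179 (SD, n = 3) per kilobase overlapped the range of Cxcl12 (563 to 742). The receptors were far scarcer, with Cxcr4 the highest of them in HFHC controls at 40.6 ± 12.3 per kilobase.

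Most genes that carry or dampen the receptor signal were higher on HFHC. There, 25 of 29 such genes rose and 0 fell in limma-trend, edgeR and DESeq2 alike, beside 16.8% of all genes that rose in limma-trend. Their median log2 fold change was 1.79, beside -0.01 for all genes. Among those that rose were the Src family kinases Fgr (3.99, adjusted p = 7.18e-08) and Lyn (2.46, adjusted p = 1.71e-07) and the PI3-kinase adaptor Pik3r5 (4.07, adjusted p = 2.11e-07). Genes of leukocyte adhesion rose in 9 of 12 cases (median 1.58), with the integrin chains Itgb2 (3.80, adjusted p = 1.26e-07) and Itgal (2.07, adjusted p = 4.17e-06), the selectin ligand Selplg (3.45, adjusted p = 2.27e-07) and Pecam1 (2.50, adjusted p = 1.81e-06). On CDAHFD 1 signalling gene, the GTPase Rac1, fell of 29 (median -0.08). Of 12 adhesion genes there, Icam1 (-0.79, adjusted p = 0.00348) and Itgb1 (-0.43, adjusted p = 0.00302) fell and Selp rose (0.90, adjusted p = 0.033).

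Genes that switch on or restrain chemokine transcription rose on HFHC in 9 of 19 cases (median 0.89), among them Nfkb1 (1.08, adjusted p = 7.54e-06) and the sensors Tlr4 (2.12, adjusted p = 2.6e-05) and Tlr2 (1.31, adjusted p = 0.000147) with their adaptor Myd88 (0.89, adjusted p = 2.58e-05). On CDAHFD, Relb (-0.74, adjusted p = 0.0279) and Tlr2 (-0.90, adjusted p = 0.0386) fell of 18. Attractants outside the symbol rule and their receptors rose in 5 of 12 cases on HFHC, led by Ppbp and the formyl peptide receptor Fpr2 (5.04, adjusted p = 1.99e-05). The 1 that fell was Rarres2, which encodes the Ccrl2 ligand chemerin (-0.57, adjusted p = 0.00612) and was named after its value was seen. On CDAHFD 0 of these 12 passed in limma-trend, edgeR or DESeq2, and 0 had an unadjusted p under 0.05. Genes that cleave or display chemokines were mixed on HFHC, with 3 of 10 higher and 2 lower (median 0.08). The macrophage elastase Mmp12, which cleaves many chemokines, fell (-2.20, adjusted p = 1.17e-05), and Mmp9 (1.91, adjusted p = 0.000279), the neutrophil protease Ctsg (5.09, adjusted p = 0.000325) and Mmp8 (2.27, adjusted p = 0.00462), also a neutrophil marker here, rose. The peptidase Dpp4, which trims chemokines and was named after its value was seen, also fell (-0.36, adjusted p = 0.0337). On CDAHFD 1 of 9, Ext1, fell.

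Markers of several myeloid cells were higher on HFHC, and those of lipid-associated macrophages were mostly lower. Of 10 monocyte and infiltrating macrophage markers 8 rose (summed level 24564 to 28744 in controls and 34068 to 41048 with the Mdm2 ASO). Of 10 Kupffer cell markers 6 rose (summed level 7649.7 to 12988 in controls and 30499 to 35006 with the Mdm2 ASO). Neither sum overlapped between the HFHC groups. Of 8 lipid-associated macrophage markers 2 rose and 4 fell (median log2 fold change -0.56). On CDAHFD 0 of 10 monocyte markers passed in limma-trend, edgeR or DESeq2, with 1 at an unadjusted p under 0.05, and of 10 Kupffer cell markers Cd5l fell. Both summed levels overlapped between the CDAHFD groups. All 5 platelet markers tested, which include Ppbp and Pf4, rose on HFHC, and 2 of 5 (Gp1ba and Itga2b) rose on CDAHFD. Sinusoidal endothelial markers rose in 7 of 10 cases on HFHC, while stellate cell markers rose in 6 of 10 and 1, Acta2, fell. Bile duct markers fell in 5 of 8 cases on HFHC (median log2 fold change -1.49) and 0 rose. Hepatocyte markers had a median log2 fold change of -0.14 on HFHC and -0.10 on CDAHFD. The part of any of these cells in the chemokine and receptor values was not tested.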

How the data were processed

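RNA was measured in 18 liver samples by strand-specific mRNA sequencing. Per the submitters' processing notes, STAR 2.7.10b, GRCm39 and featureCounts of Subread 2.0.3 were used to align and count the reads. The strand setting of counting is not given in the sources used here. The deposited signal is a normalized count: at least 99.997% of values in each library are a whole number of reads, within 0.001, times 1 constant, in 1 table per diet. This was read from the values.

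Signal was analysed as log2(value + 0.5) with limma-trend (limma 3.58.1, R 4.3.3), separately by diet and as a difference of the within-diet effects. Fold changes are on that scale, which understates changes of low genes. A gene was tested where the number of libraries with a value of 1 or more reached the size of the smaller group, and p-values were adjusted over all genes (Benjamini-Hochberg, threshold 0.05). Identical samples were averaged as 1 library. Recovered reads were tested with edgeR 4.0.16 and DESeq2 1.42.0 as alternatives, beside other pseudocounts, filters and scalings and each library left out. Scripts were tested on simulated data. Python 3.11.15 with pandas 2.3.3, numpy 2.4.6 and matplotlib 3.10.9 was used for tables and figures.

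Members and gene lists were chosen with earlier results of these data known. Members that passed are described, apart from a result that is not reported here, and up to 4 genes per list were named by smallest p. Intervals cover counting error only. Exon lengths and overlaps come from GENCODE M21 (GRCm38), which is not the build of the counts.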

Additional observations from a re-analysis of the deposited data

Results flagged for a closer look

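Some libraries stood far from the others of their group in a gap test at the 95% level, which chance meets in about 1 in 20 groups. Of 69 groups tested, 9 held such a library. Mdm2 was at 907.3 normalized counts in HFHC control replicate 1 (others 954 to 963) and at 860.8 in CDAHFD Mdm2 ASO replicate 6 (others 564 to 646). With the Mdm2 ASO on CDAHFD, Ackr4 was at 64.14 in replicate 9 (others 42.9 to 48.8), Ccl25 at 151.9 in replicate 8 (118 to 128), Ccl6 at 347.2 in replicate 10 (177 to 214) and Ccr3 at 4.786 in replicate 9 (0 to 1.13). Xcr1 was at 31.44 in CDAHFD control replicate 2 (others 10.5 to 15.0). Ccr1l1 had 0.9994 in HFHC control replicate 5 and 0.9174 in CDAHFD control replicate 3, with all other controls at 0; each is 1 read.

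The Mdm2 ASO effect on members differed between diets in these cases by the interaction test (limma-trend, adjusted p under 0.05). On the log2 scale, as CDAHFD minus HFHC, the difference was -5.911 for Ccr3, -3.476 for Ccl4, -2.407 for Ccl6, -2.294 for Ccl3, -1.815 for Ccrl2, -1.628 for Cxcl14, -1.584 for Ackr2, -1.392 for Cxcl9 and -1.007 for Ccl9. It was 0.6473 for Ccl25, 1.062 for Ackr4 and 1.335 for Ccl27a.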

How the results depend on the processing

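No member called in limma-trend reversed its direction under any alternative run. Calls held in every alternative that tested the gene for 11 of 18 members on HFHC and 3 of 5 on CDAHFD (Ccl2, Ccl9 and Cxcl10). For the difference between diets, 7 of 13 did so. Under a filter at 10, Ccr1l1 on HFHC and Ccr3 in the difference, both counted here, were not tested. On HFHC, the count of members higher (15) was 9 to 17 with 1 library left out (9 without Mdm2 ASO replicate 9). The count lower (3) was 3 to 4 with 1 library left out and 2 under library size scaling. It was 6 under quantile normalization, and 5 in DESeq2 and with the identical samples counted separately. The split of higher to lower was 15 to 3, beside 12 to 6 under quantile normalization and 15 to 2 under library size scaling. On CDAHFD, the 5 changed were 3 to 8 with 1 library left out and 8 in DESeq2. There, 1 member, Ccl27a, was higher under a pseudocount of 0.1, a filter at 10, quantile normalization, edgeR and DESeq2, and 0 to 1 with 1 library left out, while 3 to 7 were lower. For the difference, members higher (3) were 1 under library size scaling and 1 to 4 with 1 library left out, and members lower (10) were 7 to 11. The causes were not tested. No paired analysis was possible within a diet because control and Mdm2 ASO libraries share no replicate number. Across diets, same-numbered libraries did not deviate together (r from -0.066 to 0.105), and with a replicate block 3 members were higher and 9 lower in the difference. The 4 against 3 libraries on HFHC and the few reads of Ccr3 and Ccr1l1 limit the precision of those values.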
